A study of Homo sapiens with 9 samples.

Results

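Complement and acute-phase genes, C3, CFB, C1R, C1S, SAA1, SAA2, LCN2, PTX3 and TNFAIP6, were followed across cells given p65 2CS, p65 WT or vector. They were taken by name from a list of 9 symbols, which was drawn up with earlier results of these data known, and all 9 were found among the 58735 genes of the count table. RNA came from HEK293A cells, which derive from the HEK293 line of human embryonic kidney and grow flat, and in them p65, the NF-kB subunit encoded by RELA, had been knocked out. The series compared the knockout cells with and without p65 put back. The tissue label of every library is kidney.

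The p65 2CS group was the knockout line transfected with a plasmid for a form named p65 2CS, the p65 WT group received a plasmid for p65 WT, and the vector group received the vector plasmid. All 3 groups shared the knockout, the transfection 24 h earlier, and 20 ng/mL TNF for the last 2 h, and no library came from cells without TNF. Each group had 3 libraries. What 2CS stands for, the promoter that drove the plasmids, and whether the knockout line was 1 clone are not stated in the labels. No label ties the 3 libraries of a group to separate cultures, so the p-values reflect the spread between libraries, and that spread may be technical.

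Library totals were 17146134 to 25068515 counts with p65 2CS, 15989601 to 16507689 with p65 WT and 17923114 to 20162267 with vector. Levels are given as CPM, the usual depth-scaled count, taken on the TMM-scaled library total. RELA, the gene knocked out and put back, was at 25747, 26771 and 24036 CPM with p65 2CS, at 9048, 8037 and 9922 CPM with p65 WT and at 68.1, 69.0 and 65.9 CPM with vector. RELA was thus higher with p65 2CS than with p65 WT, with no overlap, and every result between the forms stands beside that gap, whose part in it was not tested. The counts do not separate plasmid transcripts from those of the cells' own gene. Of 10 kidney and neural genes known from HEK293, all were detected in every group, and their sum (1218 to 1247 CPM with p65 2CS, 1324 to 1375 CPM with p65 WT and 1375 to 1422 CPM with vector) was carried by NEFL and VIM. Members of the list differed between groups. None rose and 5 fell between the forms, where 13.4% and 17.9% of all genes tested did. With p65 2CS against vector 1 rose and 3 fell (12.1% and 11.4% of all), and with p65 WT against vector 4 rose and 2 fell (16.4% and 12.5% of all). PAX8 averaged 0.657 CPM with p65 2CS, 4.28 CPM with p65 WT and 0.139 CPM with vector. Like NEFM and INA it reached the filter on low counts in no vector library, and CDH1 reached it in 1. A difference from vector was thus built into the testing of these genes. INA reached it in no p65 2CS library either, and NEFM in 1, so for both a difference between the forms was built in too. PAX8 reached it in 2 p65 2CS libraries and in all 3 p65 WT libraries. In bulk RNA, fewer cells expressing a gene and less RNA per cell cannot be told apart.

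Complement is a cascade of plasma proteins that marks surfaces for uptake or lysis. Its classical route starts when C1q binds a target and activates the serine proteases C1r and C1s, its alternative route uses factor B, and both converge on the cleavage of C3. Acute-phase proteins such as serum amyloid A and lipocalin-2 are made in bulk by the liver during inflammation and also by epithelial and immune cells, and many of their genes are known targets of NF-kB and of the C/EBP and STAT3 factors downstream of IL-6. PTX3, a long pentraxin that binds microbes and C1q, and TSG-6, the hyaluronan-binding product of TNFAIP6, are made locally in tissues in response to TNF and IL-1.

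The promoters of 4 of the genes are shown because they pair 2 genes whose RNA differed most between the groups, PTX3 and TNFAIP6, with 2 that stayed low, CFB and LCN2. Each runs over the 250 bases before the start site in RefSeq on GRCh38.p14, on the plus strand, at chr3:157436600-157436849 for PTX3, chr2:151357342-151357591 for TNFAIP6, chr6:31945845-31946094 for CFB and chr9:128149203-128149452 for LCN2. Capitals mark the letters covered by the loose NF-kB pattern, which is GGG and CC with any 5 bases between them, on either strand.
PTX3: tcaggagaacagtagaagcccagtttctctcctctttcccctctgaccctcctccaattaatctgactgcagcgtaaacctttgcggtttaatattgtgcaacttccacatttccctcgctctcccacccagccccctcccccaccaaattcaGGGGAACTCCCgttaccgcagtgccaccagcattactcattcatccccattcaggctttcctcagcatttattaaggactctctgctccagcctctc
TNFAIP6: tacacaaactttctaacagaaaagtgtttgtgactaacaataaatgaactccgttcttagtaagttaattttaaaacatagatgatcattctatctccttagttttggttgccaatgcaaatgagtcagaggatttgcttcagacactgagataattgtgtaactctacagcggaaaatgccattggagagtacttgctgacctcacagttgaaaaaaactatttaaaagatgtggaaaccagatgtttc
CFB: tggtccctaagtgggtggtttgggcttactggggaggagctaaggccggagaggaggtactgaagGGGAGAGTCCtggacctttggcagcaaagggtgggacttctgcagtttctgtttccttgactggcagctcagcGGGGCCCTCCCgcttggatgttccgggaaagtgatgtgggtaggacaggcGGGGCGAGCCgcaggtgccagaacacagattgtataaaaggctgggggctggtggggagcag
LCN2: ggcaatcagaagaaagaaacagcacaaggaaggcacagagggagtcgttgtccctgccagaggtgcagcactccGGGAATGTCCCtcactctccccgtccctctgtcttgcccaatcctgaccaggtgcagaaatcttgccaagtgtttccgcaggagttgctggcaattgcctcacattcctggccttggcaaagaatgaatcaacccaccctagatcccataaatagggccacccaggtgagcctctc

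The RefSeq promoter table held 5 of the 9 genes, the fifth being C1R with 2 start sites. PTX3 had 2 overlapping matches to the loose pattern, reaching from position -97 to -87 before the start, and both also met the stricter kB consensus. CFB had 4 matches, of which 1 met the kB consensus, at -112 to -103, and it also had the TATA box letters TATAAA at -30 to -25. LCN2 had 2 overlapping matches, of which 1 met the kB consensus, at -175 to -166. TNFAIP6 had no match in this window. The C/EBP-like letters TTNNGNAA, searched on both strands, were found once in PTX3 (-156 to -149), once in TNFAIP6 (-95 to -88) and once in LCN2 (-143 to -136), and not in CFB. Of all 35116 promoter windows of this length in the table, 54.4% held the loose pattern, 9.96% the kB consensus, 33.2% TTNNGNAA and 10.7% TATAAA, so such matches are common. A match is a description of the letters only.

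PTX3, TNFAIP6 and C1S moved together in these cells. All 3 were highest with p65 WT, lower but still above vector with p65 2CS, and lowest with vector, without overlap between any of the groups. C1R differed little, C3 and CFB were low in every group, and SAA1, SAA2 and LCN2 were at the edge of detection or below it. Of the 9 genes, 6 passed the filter on low counts and were tested by edgeR's quasi-likelihood test. TNFAIP6 passed the filter only through the p65 groups, so a difference from vector was built into its passing. The summed level of 6 endothelial markers followed the same order of groups as PTX3, TNFAIP6 and C1S (12.4 to 15.4 CPM with p65 2CS, 50.2 to 61.4 CPM with p65 WT and 8.59 to 9.29 CPM with vector), and its part in these results was not tested. The values in each library of the 3 groups are drawn for all 9 genes in the plot of CPM by library.

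**Figure D1:**
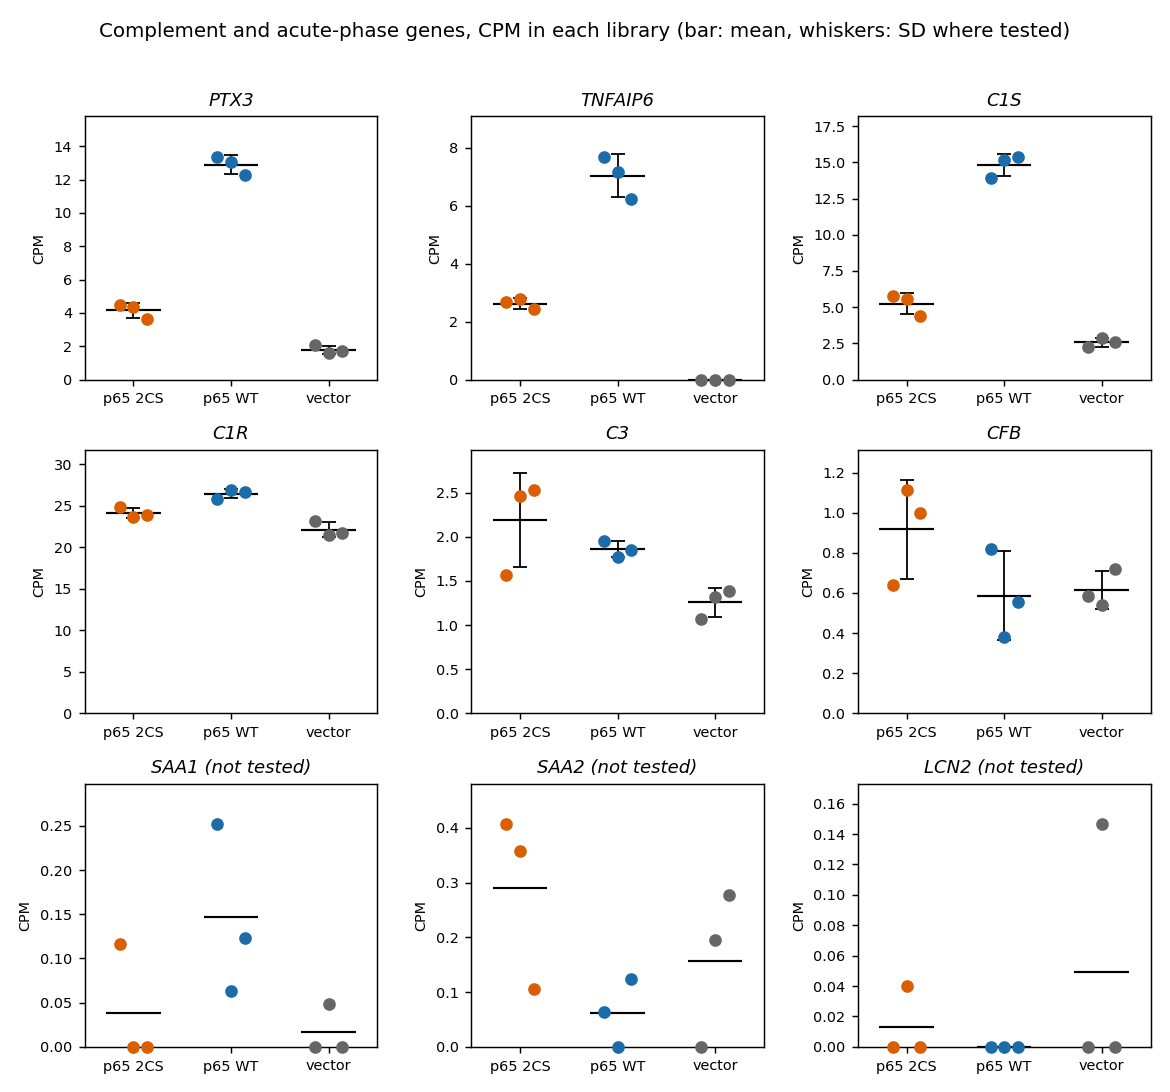
Level of each of the 9 genes in CPM (vertical axes, each from 0) in the libraries of p65 2CS, p65 WT and vector; points are libraries, bars are means, and whiskers are the SD over 3 libraries for the 6 genes tested. PTX3, TNFAIP6 and C1S are highest in all 3 p65 WT libraries, and TNFAIP6 is at 0 in all 3 vector libraries.

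Between p65 2CS and p65 WT, 3 of the 6 tested genes fell and none rose, where 31.2% of all 18195 genes tested passed the threshold of adjusted p 0.05, 17.9% as lower and 13.4% as higher. Against vector, 4 of 6 rose with p65 2CS and none fell, where 23.4% of all genes passed, 12.1% as higher and 11.4% as lower. With p65 WT against vector, 4 of 6 rose and none fell, where 28.8% of all genes passed, 16.4% as higher and 12.5% as lower. TNFAIP6 is among the 4 in both contrasts against vector, where its call was built in by the filter on low counts. Under scaling by library totals alone, the split of all genes was 3098 higher and 2820 lower for p65 2CS against p65 WT, where TMM gave 2431 and 3254. It was 1955 and 2382 for p65 2CS against vector (2193 and 2070 under TMM), and 2561 and 3642 for p65 WT against vector (2976 and 2268 under TMM). The median log2 fold over the 6 genes was -0.77 between the forms, 0.92 for p65 2CS against vector and 1.54 for p65 WT against vector, and over all genes tested it was 0.00, -0.00 and -0.02. Both contrasts against vector share the vector libraries, so their values are given side by side.

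**Figure D2:**
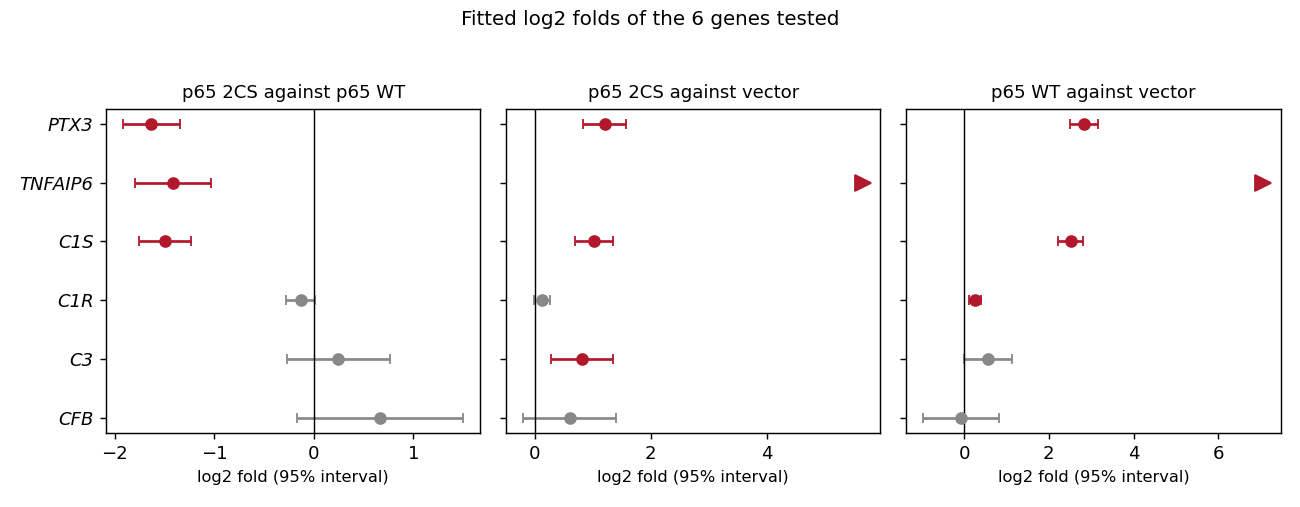
Fitted log2 folds (horizontal axes) of the 6 tested genes with 95% intervals for p65 2CS against p65 WT, p65 2CS against vector and p65 WT against vector. Red marks adjusted p under 0.05 (edgeR). Arrowheads set the observed TNFAIP6 counts against the floor of 3 counts with vector, without the counting error of the p65 groups. PTX3, TNFAIP6 and C1S lie left of 0 between the forms and right of 0 against vector.

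PTX3 (ENSG00000163661, chromosome 3, 157436789 to 157443628, plus strand of GRCh38) encodes the soluble pattern-recognition molecule pentraxin 3. It was at 4.48, 4.33 and 3.64 CPM with p65 2CS, at 13.4, 13.1 and 12.2 CPM with p65 WT and at 2.08, 1.62 and 1.71 CPM with vector. Every p65 WT library lay above every p65 2CS library, and every p65 2CS library above every vector library. PTX3 fell with p65 2CS relative to p65 WT, by 1.63 ± 0.14 on the log2 scale (SE; 3.10-fold lower; adjusted p = 1.46e-12, edgeR). Against vector it rose 2.30-fold with p65 2CS (log2 1.2 ± 0.18, adjusted p = 2.01e-06) and 7.14-fold with p65 WT (log2 2.84 ± 0.16, adjusted p = 2.44e-18). The p65 2CS group held 21.2% of the gain in CPM over vector seen with p65 WT. The whole gene lies inside VEPH1 on the opposite strand, and whether reads were counted by strand is not known, but VEPH1 itself averaged 0.671 CPM with p65 2CS, 0.524 CPM with p65 WT and 0.363 CPM with vector and passed no test.

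TNFAIP6 (ENSG00000123610, chromosome 2, 151357592 to 151380048, plus strand) encodes TSG-6, which binds hyaluronan and moves the heavy chains of inter-alpha-inhibitor onto it. It was at 2.68, 2.78 and 2.42 CPM with p65 2CS and at 7.70, 7.16 and 6.24 CPM with p65 WT, and had no read in any vector library. It was the only one of the 9 genes seen in every library of both p65 groups and in no vector library. The counts summed over a group were 162 with p65 2CS, 336 with p65 WT and 0 with vector. A sum of 0 allows up to 3 counts over the group, or 0.0524 CPM with vector. Against that floor TNFAIP6 was at least 50.4-fold higher with p65 2CS and at least 134-fold higher with p65 WT. No vector library reached the filter's minimum, so a difference from vector was built into its being tested, and its calls against vector give no support. TNFAIP6 fell with p65 2CS relative to p65 WT by 1.41 ± 0.19 on the log2 scale (2.66-fold lower, adjusted p = 1.04e-07, edgeR). Its level with p65 2CS was 37.4% of that with p65 WT.

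C1S and C1R encode the paired proteases of the C1 complex: C1r activates itself and then C1s, which goes on to cleave C4 and C2. The genes lie tail to tail on chromosome 12, C1S (ENSG00000182326) at 6988259 to 7071032 on the plus strand and C1R (ENSG00000159403) at 7080199 to 7092607 on the minus strand. C1S was at 5.76, 5.56 and 4.43 CPM with p65 2CS, at 13.9, 15.1 and 15.4 CPM with p65 WT and at 2.24, 2.89 and 2.60 CPM with vector. Its 3 groups did not overlap, in the same order as for PTX3. C1S fell with p65 2CS relative to p65 WT by 1.49 ± 0.13 on the log2 scale (2.82-fold lower, adjusted p = 2.19e-12, edgeR). It rose 2.03-fold with p65 2CS against vector (log2 1.02 ± 0.16, adjusted p = 4.88e-06) and 5.73-fold with p65 WT against vector (log2 2.52 ± 0.15, adjusted p = 5.03e-18). The p65 2CS group held 21.8% of the gain over vector seen with p65 WT.

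C1R was the most abundant of the 9 genes per length with p65 2CS and with vector, and it hardly varied. It was at 24.8, 23.7 and 23.9 CPM with p65 2CS, at 25.8, 26.9 and 26.6 CPM with p65 WT and at 23.2, 21.5 and 21.7 CPM with vector. The ranges of the 3 groups did not overlap, but lay close together. C1R rose 1.2-fold with p65 WT against vector (log2 0.26 ± 0.07, adjusted p = 0.00468, edgeR). It did not pass the test for p65 2CS against vector (log2 0.13, 95% interval -0.02 to 0.27, adjusted p = 0.213) or for p65 2CS against p65 WT (log2 -0.13, interval -0.28 to 0.01, adjusted p = 0.155).

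The balance of the pair can be read within a library, free of library scaling. The C1S to C1R count ratio was 0.217 ± 0.0281 with p65 2CS, 0.561 ± 0.0189 with p65 WT and 0.117 ± 0.0190 with vector (SD, n = 3 each). Its ranges were 0.185 to 0.235, 0.540 to 0.578 and 0.0968 to 0.134 in that order of groups, with no overlap. In each of the 3 comparisons the two-sided exact permutation test gave p = 0.1 (adjusted over the 3, also 0.1), the smallest value that 3 against 3 libraries allow. C1S shares 2.15% of the 75-base windows of its transcripts with EMG1 and overlaps LPCAT3 on the opposite strand, and C1R shares 9.20% of its windows with C1RL. The read length was not known, and 75 bases is a chosen length. EMG1 averaged 41.0, 41.6 and 43.0 CPM and LPCAT3 21.5, 23.0 and 22.6 CPM with p65 2CS, p65 WT and vector, and neither passed a test in any comparison.

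Within 200 kb of C1S and C1R, a window set after the values of both genes were known, 24 other genes were tested. Between p65 2CS and p65 WT none rose and 7 fell, where 13.4% of all genes tested rose and 17.9% fell. Against vector 1 rose and 2 fell with p65 2CS (12.1% and 11.4% of all), and 6 rose and 2 fell with p65 WT (16.4% and 12.5% of all). The 7 that fell and the 6 that rose are larger shares of the 24 than of all genes. Whether this sets the stretch apart was not tested, and its genes are described for their place beside C1S and C1R. ATN1, upstream of C1S, was the only gene to rise with both forms, at 336 CPM with p65 2CS, 337 CPM with p65 WT and 287 CPM with vector (adjusted p = 1.25e-07 and 2.48e-08 against vector, edgeR). The other 5 that rose with p65 WT were C1RL, C1RL-AS1, RBP5, AC018653.3 and CLSTN3, the first 5 tested genes that follow C1R along the chromosome.

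C1RL, which encodes a protease related to C1r, averaged 24.5 ± 0.102 CPM with p65 2CS, 33.3 ± 2.70 CPM with p65 WT and 21.7 ± 1.71 CPM with vector (SD, n = 3 each, also below). C1RL-AS1, a non-coding gene antisense to C1RL, averaged 11.3 ± 0.650 CPM with p65 2CS, 41.0 ± 2.61 CPM with p65 WT and 10.8 ± 0.946 CPM with vector. RBP5, which encodes a retinol-binding protein, averaged 3.40 ± 0.581, 9.54 ± 1.11 and 3.12 ± 0.617 CPM in those groups. All 3 were highest with p65 WT, while their p65 2CS means lay near those of vector. AC018653.3 averaged 3.61 ± 0.554, 10.6 ± 0.0594 and 3.44 ± 0.515 CPM with p65 2CS, p65 WT and vector. CLSTN3, which encodes a synaptic adhesion protein, averaged 74.9 ± 0.461, 114 ± 6.31 and 72.9 ± 1.43 CPM.

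All 5 fell with p65 2CS relative to p65 WT, with log2 folds of -0.44, -1.85, -1.5, -1.54 and -0.60 in the order in which they are named (highest adjusted p 4.38e-06, edgeR). None of them passed the test for p65 2CS against vector, where the log2 folds were 0.17, 0.07, 0.10, 0.07 and 0.04 (lowest adjusted p 0.0956). C1S, by contrast, did pass it. Reads of C1RL and its antisense partner cannot be told apart where strand is not known. The same holds for AC018653.3 and CLSTN3, which overlap on opposite strands, so these genes are not independent of each other.

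**Figure D3:**
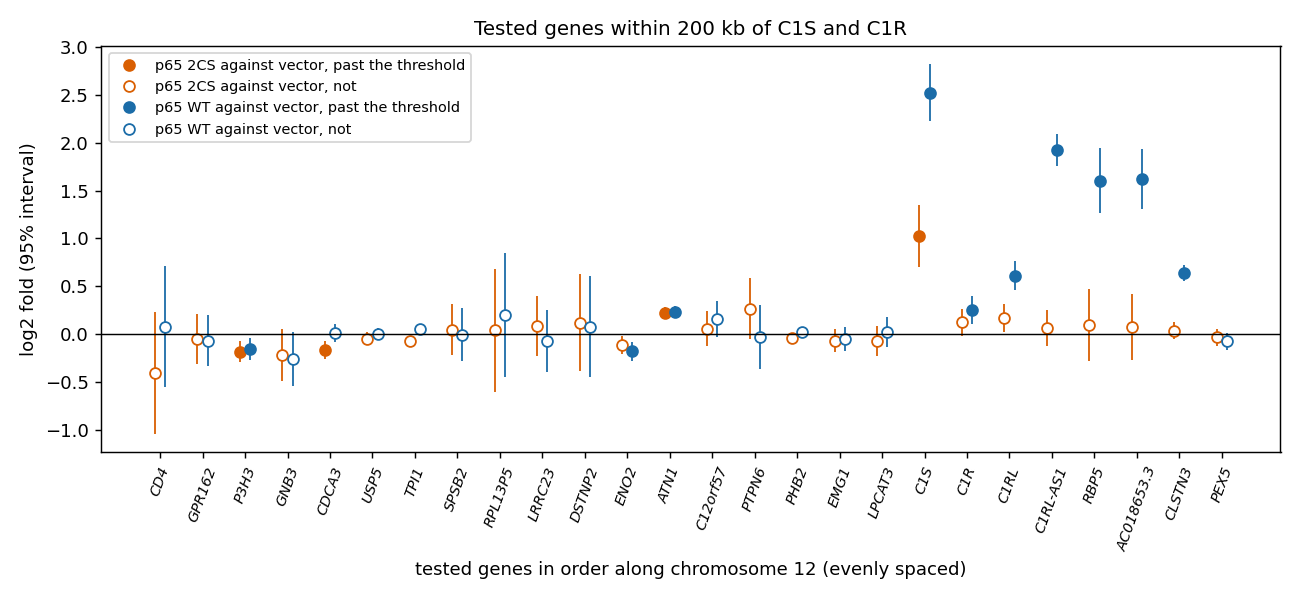
Log2 fold with 95% interval (vertical axis) of the tested genes within 200 kb of C1S and C1R, evenly spaced in their order along chromosome 12 (horizontal axis); orange is p65 2CS against vector, blue is p65 WT against vector, and filled points passed adjusted p 0.05. With p65 WT, C1S and all but the last gene after it rose; with p65 2CS, C1S and ATN1 are the filled points above 0.

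C3 (ENSG00000125730, chromosome 19, 6677704 to 6730562, minus strand) encodes the central component of the cascade, and CFB (ENSG00000243649, chromosome 6, 31945650 to 31952084, plus strand) encodes factor B, which pairs with C3b to form the convertase of the alternative route. C3 was at 1.57, 2.46 and 2.53 CPM with p65 2CS, at 1.96, 1.77 and 1.85 CPM with p65 WT and at 1.07, 1.32 and 1.38 CPM with vector. Both p65 groups lay above the vector libraries, and they overlapped each other. C3 rose 1.75-fold with p65 2CS against vector (log2 0.81 ± 0.26, adjusted p = 0.0202, edgeR). That call was lost without vector library 1 (adjusted p = 0.0948), p65 2CS library 8 (adjusted p = 0.107) or p65 2CS library 9 (adjusted p = 0.0838).

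With p65 WT against vector, C3 had a log2 fold of 0.56 (95% interval 0.00 to 1.13, adjusted p = 0.129), and between the forms the fold was 0.25 (interval -0.27 to 0.76, adjusted p = 0.506). C3 overlaps 649 bases of GPR108 on the same strand, and shares no 75-base window of its transcripts with another gene. GPR108 averaged 73.1 ± 2.22 CPM with p65 2CS, 78.3 ± 1.42 CPM with p65 WT and 61.5 ± 1.69 CPM with vector. It too rose against vector, by log2 0.25 with p65 2CS (adjusted p = 3.92e-05, edgeR) and 0.35 with p65 WT (adjusted p = 4.43e-08), and its part in the C3 counts was not tested.

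CFB was at 0.640, 1.11 and 1.00 CPM with p65 2CS, at 0.820, 0.380 and 0.556 CPM with p65 WT and at 0.587, 0.538 and 0.719 CPM with vector, and all groups overlapped. It passed no test: log2 0.67 between the forms (95% interval -0.17 to 1.5, adjusted p = 0.235, edgeR), 0.60 for p65 2CS against vector (interval -0.20 to 1.40, adjusted p = 0.298) and -0.06 for p65 WT against vector (interval -0.96 to 0.84, adjusted p = 0.939). These intervals are wide, with 58, 28 and 35 counts over the p65 2CS, p65 WT and vector groups. CFB shares 39.7% of its windows with AL645922.1, a gene model that spans it and has no count in any library, so its reads could have been split or dropped.

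SAA1 and SAA2 encode the acute-phase serum amyloid A proteins, carried on high-density lipoprotein, and LCN2 encodes lipocalin-2, which binds the iron carriers of bacteria. None passed the filter. A gene was called below detection where a group held 3 counts or fewer over its 3 libraries. LCN2 (ENSG00000148346, chromosome 9, 128149071 to 128153455, plus strand) was below detection in all 3 groups, with 1 count with p65 2CS, none with p65 WT, which allows up to 0.0627 CPM, and 3 counts with vector. Its p65 2CS to vector ratio, 0.311, had a 95% counting interval (Clopper-Pearson) of 0.00593 to 3.88.

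SAA1 (ENSG00000173432, chromosome 11, 18266174 to 18269977, plus strand) was detected with p65 WT alone, at 0.252, 0.0634 and 0.124 CPM, a sum of 7 counts (exact Poisson interval 0.0589 to 0.302 CPM). It was at 0.116, 0 and 0 CPM with p65 2CS, 2 counts in all (0.00395 to 0.118 CPM), and at 0, 0.0489 and 0 CPM with vector, 1 count (0.000442 to 0.0973 CPM). The p65 2CS libraries overlapped those of p65 WT and of vector. In CPM the p65 WT libraries all lay above those of vector. However, p65 WT library 5 and vector library 2 held 1 count each, so that gap reflects only their library totals. In a fit without the filter, SAA1 had adjusted p of 0.486 for p65 2CS against p65 WT, 0.913 for p65 2CS against vector and 0.34 for p65 WT against vector (edgeR).

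SAA2 (ENSG00000134339, chromosome 11, 18239223 to 18248643, minus strand) was below detection with p65 WT only. It was at 0.407, 0.358 and 0.105 CPM with p65 2CS (18 counts), at 0.0631, 0 and 0.124 CPM with p65 WT (3 counts) and at 0, 0.196 and 0.276 CPM with vector (9 counts), and all 3 groups overlapped. The p65 2CS to p65 WT ratio was 4.68 with a counting interval of 1.37 to 24.8, which leaves out the spread between libraries; in the fit without the filter the adjusted p was 0.166 (edgeR). SAA1 shares 35.0% of its windows with SAA2, so their few reads could have been split or dropped. Intervals and floors cover counting error only.

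Levels of different genes were compared as CPM per kb of gene length. With p65 2CS the order was C1R (4.10), PTX3 (2.14), TNFAIP6 (1.66) and C1S (0.813), each clear of the next, and then C3 (0.263), CFB (0.184), SAA2 (0.130), SAA1 (0.0487) and LCN2 (0.00829), whose neighbours overlapped. With p65 WT, PTX3 (6.64 CPM per kb) stood first, above C1R (4.49) and TNFAIP6 (4.45), which overlapped, and C1S (2.29). The rest followed as C3 (0.224), SAA1 (0.184) and CFB (0.117), which overlapped their neighbours, and then SAA2 (0.0279) and LCN2 (0), which overlapped each other. With vector, C1R (3.76 CPM per kb) led PTX3 (0.930), C1S (0.399) and C3 (0.151), and from C3 down through CFB (0.123), SAA2 (0.0707), LCN2 (0.0306), SAA1 (0.0205) and TNFAIP6 (0) neighbours overlapped. PTX3 thus stood above C1R with p65 WT and below it with p65 2CS and with vector.

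**Figure D4:**
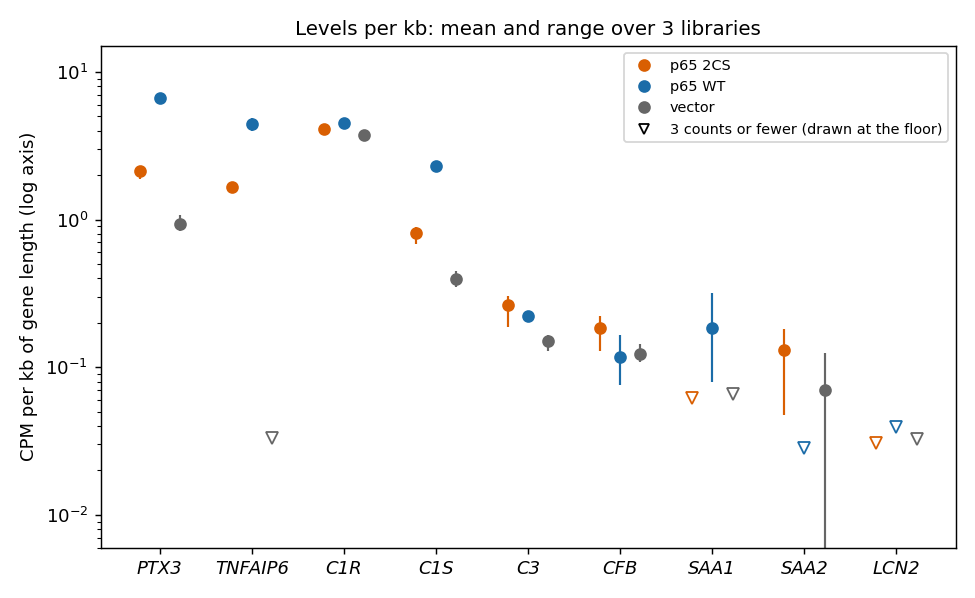
Mean level in CPM per kb of gene length (log vertical axis) of the 9 genes with p65 2CS, p65 WT and vector; lines span the lowest to the highest of 3 libraries, a line running to the bottom axis reaches 0, and open triangles mark groups with 3 counts or fewer, drawn at the floor. C1R stays near 4 in every group, and LCN2 has triangles only.

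The genes most alike in pattern were found by the root mean square difference in log2 CPM, centred on each gene's mean, over the 9 libraries. They were picked for likeness in these same libraries, so an order of groups that they share was built in by the choice and gives no support. For PTX3 they were TNFAIP2 (0.120), NFKB2 (0.131) and C1QTNF1 (0.131). For C1S they were MSX1 (0.145), GRHL3 (0.154) and ABCG1 (0.156), and for TNFAIP6 they were CXCL10 (0.334), AC083837.1 (0.342) and HSPD1P6 (0.406), a pseudogene whose reads could come from a near-identical copy. NFKB2, which encodes the NF-kB subunit p100, averaged 113 CPM with p65 2CS, 365 CPM with p65 WT and 49.4 CPM with vector, an order of groups that PTX3 shares. CXCL10, a chemokine gene, averaged 1.56 CPM with p65 2CS and 5.21 CPM with p65 WT and had no read with vector, as TNFAIP6 had none. C1R was most like SETD4 (0.0257), PHRF1 (0.0303) and ABCF1 (0.0317), genes whose folds were also small. Even so, PHRF1 was called in every comparison (highest adjusted p = 0.00539, edgeR). ABCF1 was called with p65 WT against vector (4.12e-07) and between the forms (0.000647), and SETD4 with p65 WT against vector (0.0014). C3 was most like WDR31 (0.126), LGALS9 (0.150) and IRF7 (0.154), and CFB most like NEUROG2 (0.175), LINC01881 (0.179) and CCNJL (0.180).

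The rest of the complement and acute-phase system was read from 6 further lists. Of 24 other complement components, 11 were tested. Between the forms 1 rose and 1 fell, where 13.4% of all genes rose and 17.9% fell. With p65 2CS against vector 1 rose and none fell (12.1% and 11.4% of all), and with p65 WT against vector 2 rose and none fell (16.4% and 12.5% of all). The median log2 folds were -0.08, 0.22 and 0.26 in that order of comparisons. C5, the source of the anaphylatoxin C5a, averaged 6.56 CPM with p65 2CS, 4.80 CPM with p65 WT and 4.77 CPM with vector, and was higher with p65 2CS than in either other group (log2 0.46, adjusted p = 0.0263 against p65 WT; log2 0.46, adjusted p = 0.0277 against vector, edgeR). Against p65 WT that call was lost under DESeq2 (adjusted p = 0.0541) and without p65 WT library 6 (0.209) or p65 2CS library 8 (0.0923) or 9 (0.056). Against vector it was lost without vector library 2 (adjusted p = 0.0572) or 3 (0.134) or p65 2CS library 8 (0.107) or 9 (0.0634). C4B, whose reads may be split with its near-identical copy C4A, averaged 0.656 CPM with p65 2CS, 0.732 CPM with p65 WT and 0.229 CPM with vector. It was called higher with p65 WT against vector (log2 1.66, adjusted p = 0.0351, edgeR). It had 13 counts over the vector group, reached the filter's minimum in no vector library and was tested through the p65 groups alone, so a difference from vector was built in. The call was lost under DESeq2 (adjusted p = 0.0636), under limma-voom (adjusted p = 0.0578) and without vector library 2 (0.134) or 3 (0.0801) or p65 WT library 4 (0.198) or 6 (0.0754). C1QA, C1QB and C1QC, which encode the recognition part of C1, had no read in any of the 9 libraries, as had C6, C8A and C8B; these 6 are named after their values were seen.

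Regulators protect the cells' own surfaces from complement. Of 14, 8 were tested. None rose and 3 fell between the forms, where 13.4% of all genes rose and 17.9% fell. With p65 2CS against vector none rose and 5 fell (12.1% and 11.4% of all), and with p65 WT against vector 2 rose and 2 fell (16.4% and 12.5% of all). Median log2 folds were -0.15, -0.21 and 0.04. The count of 5 became 3 under DESeq2, without vector library 1 and without p65 2CS library 8. CD59, which blocks the membrane attack complex, averaged 68.7 CPM with p65 2CS, 87.0 CPM with p65 WT and 74.6 CPM with vector; it fell between the forms (log2 -0.34, adjusted p = 2.01e-08, edgeR) and rose with p65 WT against vector (log2 0.22, adjusted p = 5.73e-05). CD55, which speeds the decay of convertases, fell against vector with both forms, at 40.5 CPM with p65 2CS, 41.1 CPM with p65 WT and 50.04 CPM with vector (log2 -0.31, adjusted p = 4.92e-05; log2 -0.28, adjusted p = 0.000122). CD46, a cofactor for C3b cleavage, averaged 76.1 CPM with p65 2CS, 81.4 CPM with p65 WT and 89.7 CPM with vector. It fell with p65 2CS against vector (log2 -0.24, adjusted p = 8.31e-05, edgeR). Its p65 WT libraries (75.9 to 85.8 CPM) also lay below those of vector (88.5 to 90.8 CPM). CLU, which encodes clusterin, fell with p65 2CS to 447 CPM, against 501 CPM with p65 WT and 510 CPM with vector (adjusted p = 9.54e-07 and 9.62e-08). C1QBP, which encodes a C1q-binding protein of mitochondria, averaged 338, 384 and 359 CPM with p65 2CS, p65 WT and vector, and fell between the forms (log2 -0.18, adjusted p = 1.69e-06). It rose with p65 WT against vector (log2 0.10, adjusted p = 0.00729, edgeR). That call was lost under library totals alone (adjusted p = 0.132) and without vector library 2 (adjusted p = 0.0621). With p65 2CS, C1QBP (326 to 346 CPM) lay below its vector libraries (352 to 368 CPM). CD59 did too, at 68.1 to 69.2 CPM with p65 2CS and 73.1 to 75.9 CPM with vector.

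Of 9 complement receptor genes, 5 were tested. Between the forms 1 fell, where 17.9% of all genes did. Against vector 1 rose with p65 2CS (12.1% of all) and 2 rose with p65 WT (16.4% of all). Median log2 folds were -0.15, 0.18 and 0.34. ITGAM and ITGB2 encode the chains of complement receptor 3, which takes up iC3b-coated targets. ITGAM averaged 1.45 CPM with p65 2CS, 2.24 CPM with p65 WT and 0.421 CPM with vector, higher than vector with p65 2CS (log2 1.79, adjusted p = 0.000184, edgeR) and with p65 WT (log2 2.40, adjusted p = 3.68e-07). No vector library reached the filter's minimum for ITGAM (24 counts over the group), so that a difference from vector was built into its being tested, and its rises give no support. ITGB2 averaged 1.76 CPM with p65 2CS, 4.15 CPM with p65 WT and 1.29 CPM with vector; it fell between the forms (log2 -1.26, adjusted p = 7.12e-05) and rose with p65 WT against vector (log2 1.68, adjusted p = 1.26e-06).

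Most other acute-phase proteins were near absent. Of 24, only 3 passed the filter, and CRP, APCS, FGA, FGG, S100A8 and S100A9, named after their values were seen, had no read in any library. Of the 3 tested, 2 rose between the forms, where 13.4% of all genes did. Against vector 1 rose with p65 2CS (12.1% of all), and none was called with p65 WT (28.8% of all in either direction). Median log2 folds were 0.81, 0.27 and -0.55. TF, which encodes transferrin, averaged 1.42 CPM with p65 2CS, 0.689 CPM with p65 WT and 0.683 CPM with vector (log2 1.05, adjusted p = 0.0258 against p65 WT; log2 1.07, adjusted p = 0.025 against vector, edgeR). HPX, which encodes the haem carrier hemopexin, averaged 2.16 CPM with p65 2CS, 1.23 CPM with p65 WT and 1.81 CPM with vector. It was higher with p65 2CS than with p65 WT (log2 0.81, adjusted p = 0.0183, edgeR) and was not called against vector with either form. Against p65 WT, TF lost its call under DESeq2 (adjusted p = 0.0597) and without p65 2CS library 7 (0.078) or 8 (0.155) or p65 WT library 4 (0.0927) or 5 (0.0742). Against vector, TF lost it under DESeq2 (adjusted p = 0.0557) and without p65 2CS library 7 (0.0857) or 8 (0.167) or vector library 1 (0.11) or 2 (0.0709). HPX lost its call without p65 2CS library 7 (adjusted p = 0.052) or 8 (0.09) or p65 WT library 5 (0.0615).

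Of 12 genes of the cytokine route that drives the acute-phase response, 9 were tested. Between the forms 1 rose and 7 fell, where 13.4% of all genes rose and 17.9% fell. With p65 2CS against vector 3 rose and 2 fell (12.1% and 11.4% of all), with 3 calls in all without vector library 1 or 2 or p65 2CS library 9. With p65 WT against vector 6 rose and 1 fell (16.4% and 12.5% of all). Median log2 folds were -0.39, 0.04 and 0.30. IL6 itself had 3, 4 and 2 counts over the p65 2CS, p65 WT and vector groups. CEBPB, a transcription factor of acute-phase genes, averaged 30.9 CPM with p65 2CS, 26.1 CPM with p65 WT and 50.02 CPM with vector. Against vector it fell with p65 2CS (log2 -0.70, adjusted p = 1.02e-11) and with p65 WT (log2 -0.94, adjusted p = 2.1e-15, edgeR). Between the forms it was higher with p65 2CS (28.7 to 32.6 CPM) than with p65 WT (24.3 to 28.4 CPM), without overlap. IL6ST, the shared receptor chain gp130, averaged 138, 157 and 123 CPM with p65 2CS, p65 WT and vector, with adjusted p of 0.000108 between the forms, 0.00119 for p65 2CS against vector and 5.66e-10 for p65 WT against vector. SOCS3, a feedback inhibitor of that receptor, averaged 12.9, 18.5 and 10.3 CPM in the same order of groups and fell between the forms (log2 -0.51, adjusted p = 9.41e-05). SOCS3 rose with p65 WT against vector (log2 0.85, adjusted p = 9.66e-09) and with p65 2CS (log2 0.35, adjusted p = 0.013), the second of which was lost without vector library 2 (adjusted p = 0.0877) or p65 2CS library 8 (adjusted p = 0.209). IL1R1, the IL-1 receptor, averaged 2.48 CPM with p65 2CS, 5.14 CPM with p65 WT and 1.56 CPM with vector. It fell between the forms (log2 -1.08, adjusted p = 5.68e-05, edgeR).

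Of 14 partners of the 9 gene products (receptors, hyaluronan enzymes and ligands), 8 were tested. Between the forms 1 rose and 2 fell, where 13.4% of all genes rose and 17.9% fell. With p65 2CS against vector 1 rose and 2 fell (12.1% and 11.4% of all), and with p65 WT against vector 3 rose and 2 fell (16.4% and 12.5% of all). Median log2 folds were -0.03, -0.13 and -0.06. The 5 calls with p65 WT became 3 under DESeq2, without the filter, in a fit of only the 2 groups, with RELA left out and without p65 WT library 6. BMP2, a growth factor that TSG-6 binds, was at 59.4 CPM with p65 2CS, 50.9 CPM with p65 WT and 28.04 CPM with vector, highest with p65 2CS (log2 0.22, adjusted p = 0.0012 against p65 WT; log2 1.09, adjusted p = 1.45e-18 against vector, edgeR). HAS3, a hyaluronan synthase, averaged 4.44, 7.08 and 3.24 CPM with p65 2CS, p65 WT and vector; it fell between the forms (log2 -0.67, adjusted p = 0.00194) and rose with p65 WT against vector (log2 1.13, adjusted p = 2.41e-06). CD44, the hyaluronan receptor, averaged 63.2, 90.6 and 69.0 CPM, fell between the forms (log2 -0.52, adjusted p = 7.63e-12) and rose with p65 WT against vector (log2 0.39, adjusted p = 7.08e-09). SCARB1, a lipoprotein receptor that binds serum amyloid A, averaged 96.3 CPM with p65 2CS, 96.7 CPM with p65 WT and 105 CPM with vector. Its libraries with p65 2CS and with p65 WT all lay below those of vector. SCARB1 fell with p65 2CS against vector (log2 -0.12, adjusted p = 0.0175, edgeR). That call was lost under DESeq2 (adjusted p = 0.0579) and without vector library 1 (adjusted p = 0.0803) or p65 2CS library 8 (adjusted p = 0.114). CD44 was called lower with p65 2CS against vector at adjusted p = 0.049 (log2 -0.13), a call lost under 8 of 16 alternatives (adjusted p 0.0553 to 0.249), among them those without p65 2CS library 7 or 8 or vector library 2 or 3.

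**Figure D5:**
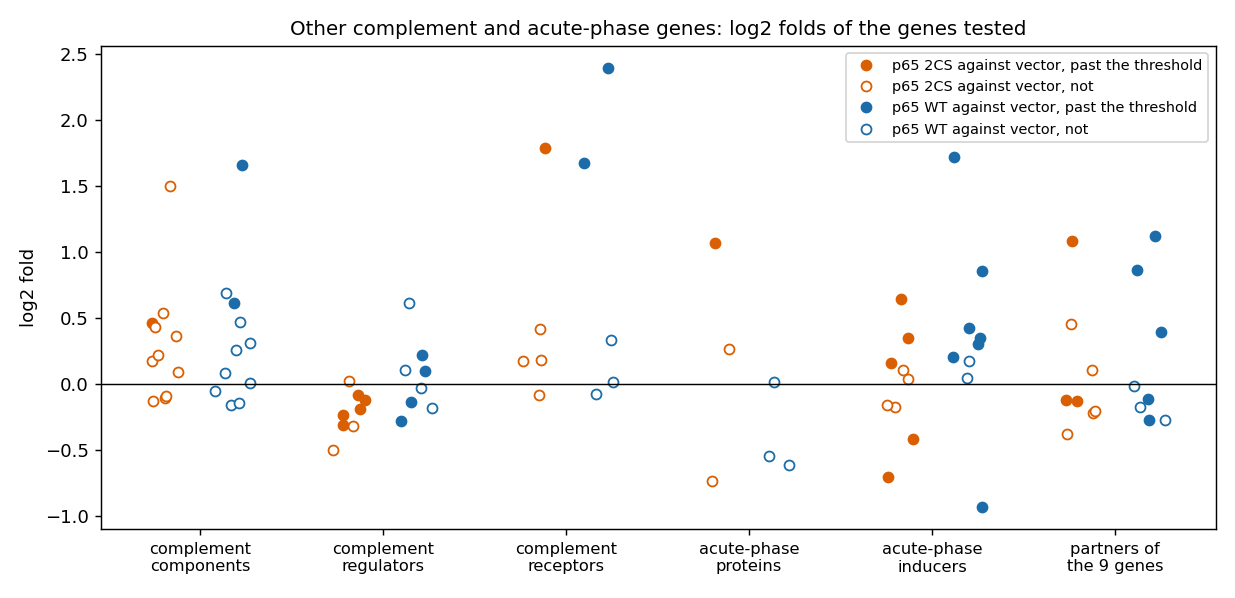
Log2 folds (vertical axis) of the tested genes of the 6 related lists (horizontal axis, each point 1 gene); orange is p65 2CS against vector, blue is p65 WT against vector, and filled points passed adjusted p 0.05. Of the regulators no gene rose with p65 2CS, and in the acute-phase protein list only 3 genes could be tested.

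Markers of other cell types ranged from near absent to well detected. Hepatocyte markers, of which none of 10 passed the filter, summed to 1.40 to 2.54 CPM with p65 2CS, 1.204 to 1.79 CPM with p65 WT and 0.685 to 1.55 CPM with vector, and APOA2 was at 0 in all 3 groups. Leukocyte markers (3 of 8 tested) summed to 5.16 to 5.41 CPM with p65 2CS, 5.07 to 5.997 CPM with p65 WT and 3.87 to 4.09 CPM with vector, PTPRC was at 0 with p65 WT and with vector, and ITGAM, described above, is 1 of these markers. Fibroblast markers (3 of 6 tested) summed to 68.5 to 73.2 CPM with p65 2CS, 83.8 to 89.3 CPM with p65 WT and 74.2 to 81.2 CPM with vector, with DCN at 0 with p65 2CS and with vector; most of the sum was COL1A1, at 49.3 CPM with p65 2CS, 56.4 CPM with p65 WT and 49.1 CPM with vector, and COL3A1. Of the 6 endothelial markers 4 were tested, and CDH5, VWF and CLDN5 fell between the forms and were called higher than vector with both. VWF averaged 9.40 CPM with p65 2CS, 25.1 CPM with p65 WT and 7.22 CPM with vector. Per kb of gene length it was at 0.905, 2.42 and 0.695 CPM in that order of groups. These levels lay below those of PTX3 (2.14, 6.64 and 0.930). They lay above the means of C1S (0.813, 2.29 and 0.399), with overlapping libraries in both p65 groups. CLDN5 averaged 1.75, 17.7 and 0.423 CPM and CDH5 2.38, 10.5 and 0.0979 CPM in the same order of groups. CDH5 reached the filter's minimum in no vector library and CLDN5 in 1, so both were tested through the p65 groups alone and their calls against vector were built in. None of the 6 was at 0 in any group, and PECAM1 had 1, 3 and 7 counts over the p65 2CS, p65 WT and vector groups.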

How the data were processed

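Poly-A RNA of 9 libraries was sequenced. Per the labels' protocols, cDNA was primed at random, and either a strand-marked or an unmarked library was possible. The submitters' processing notes name HISAT2 2.0.5 for the reads. How reads were counted, by which strand setting and on which build is not given in the sources used here. As deposited by the authors, the values are raw counts per gene, not normalized. The positions of 9 of 9 genes equal those of GENCODE 29 on GRCh38, which gives the build used here.

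From the deposited counts, edgeR 4.0.16 (in R 4.3.3) applied filterByExpr (minimum count 10; 18195 genes kept, 40540 not), TMM scaling and the quasi-likelihood F test in 1 fit of the 9 libraries with a mean per group. P-values were adjusted by Benjamini-Hochberg over every tested gene, and 0.05 was the threshold. CPM, CPM per kb, exact Poisson and Clopper-Pearson intervals of 95% and floors of 3 counts per group were computed from the counts; without molecular identifiers, reads are not independent molecules. All pairs of libraries within a group differed by more than sampling noise (chi-square per degree of freedom 1.91 to 2.64). Alternatives used DESeq2 1.42.0, limma 3.58.1 voom, other scalings, no filter, fits of 2 groups, RELA left out and each library left out. The test was checked on simulated counts for p65 WT against vector alone. Changes were put only into better-expressed genes, so that check does not cover genes with few counts, such as C3 and CFB.

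The 9 genes and the lists were chosen with earlier results of these data known. From each list, up to 3 genes with the lowest adjusted p past the threshold were named per comparison, and for each tested gene its 3 most alike genes (prior count 2). Genes around C1S and C1R were chosen after those values were seen. Promoters were read from RefSeq sequences on GRCh38.p14.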

Additional observations from a re-analysis of the deposited data

How the results depend on the processing

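Of the 9 genes, 4 were called with p65 WT against vector, 3 to 4 with p65 2CS against vector and 3 between the forms over 16 alternatives. The calls of PTX3, C1S and TNFAIP6 held in all 16 in each comparison, but those of TNFAIP6 against vector were built in by the filter. The log2 fold between the forms ran from -1.68 to -1.55 for PTX3, -1.55 to -1.39 for C1S and -1.49 to -1.35 for TNFAIP6. C1R with p65 WT against vector kept its call (highest adjusted p 0.0285 over edgeR, DESeq2 and limma-voom fits). The counts over all genes stayed within 1.5 times, at 4771 to 5918 between the forms, 3231 to 4410 for p65 2CS against vector and 4340 to 6203 for p65 WT against vector. Library totals alone moved the median of all genes by -0.04 to 0.03 on the log2 scale.

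Signs turned for values near 0 that passed no test, and the cause was not tested. CFB with p65 WT against vector ran from -0.38 to 0.16 with a library left out, and was 0.06 without vector library 3 and 0.16 without p65 WT library 5. With p65 2CS against vector, RBP5 ran from -0.04 to 0.25 and was -0.04 without vector library 3 and -0.03 without p65 2CS library 7, and AC018653.3 ran from -0.04 to 0.19 and was -0.03 without vector library 1 and -0.04 without p65 2CS library 8. ATN1 between the forms was 0.02 under library totals alone and 0.02 without p65 WT library 6.

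C1RL with p65 2CS against vector passed without vector library 2 (log2 0.23, adjusted p = 0.0481), and GPR108 between the forms passed with RELA left out (log2 -0.11, adjusted p = 0.0443, edgeR). List counts moved most for components (1 to 3 calls with p65 WT against vector, 0 to 3 with p65 2CS against vector) and acute-phase proteins (0 to 3 between the forms), which hold genes with few counts. Other counts that moved over 1.5 times were regulators between the forms (3, but 5 without p65 WT library 6), partners with p65 2CS against vector (3, but 1 under DESeq2 and without p65 2CS library 8) and acute-phase proteins with p65 WT against vector (0, but 2 without the filter and 1 without p65 WT library 5). Alternatives for genes near C1S and C1R and for GPR108 were added after the data were seen. No paired analysis was possible because the replicate numbers are not shared between groups. Depth limits SAA1, SAA2 and LCN2, for which an absence of change cannot be read.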
